A study of Mus musculus with 6 samples.

Results

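Adipokines are the hormones, cytokine-like proteins and enzymes that fat cells secrete. The genes described here were chosen by symbol and number 10: Adipoq, Retn, Lep, Cfd, Agt, Rbp4, Nampt, Apln, Rarres2 and Angptl4. Of these, 8 were among the 16423 gene symbols used here, and Lep and Rbp4 were not analysed here. A gene was tested if its mean over the 6 libraries was at least 1 FPKM, which 7 of the 8 reached and Retn did not. FPKM counts the fragments on a gene, scaled by the gene's length and the library total, so levels can be set side by side between genes.

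The cells were C3H10T1/2, a mouse mesenchymal line that can become adipocytes. All cells were induced for 2 days with 0.5 mM isobutylmethylxanthine, 1 µM dexamethasone, 850 nM insulin, 1 nM triiodothyronine, 125 nM indomethacin and 1 µM rosiglitazone. They were then kept 2 days in triiodothyronine, insulin and rosiglitazone at those doses. Rosiglitazone activates PPARG, the nuclear receptor that drives adipogenesis and many adipokine genes, and controls and knockdown cells both had it. On day 4 the cells were transfected with control siRNA (siNC, genotype given as WT) or with siRNAs against Ybx1 (siYBX1), and RNA was collected 48 h after that, for 3 libraries per group. A cell line in a dish has no vessels or immune cells, and the level of a transcript is not the amount of protein secreted. Nothing in the labels says that the replicates were grown separately. The p-values therefore describe the spread among these 6 libraries, part of which could be technical.

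Adipoq encodes adiponectin, which acts on liver and muscle through the receptors ADIPOR1 and ADIPOR2 and is a marker of mature fat cells. Cfd encodes adipsin, the serine protease that activates factor B in the alternative complement pathway, and Agt encodes angiotensinogen, the precursor of the angiotensin peptides. Nampt makes nicotinamide mononucleotide for NAD synthesis inside cells and is also found outside them. Rarres2 encodes chemerin and Apln apelin, both ligands of G protein-coupled receptors. Angptl4 encodes an inhibitor of lipoprotein lipase, and Retn encodes resistin. YBX1 is a Y-box protein, a family that binds RNA and was named after the Y box, a promoter element with an inverted CCAAT.

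The 250 bases before the annotated start are shown for 4 members: Adipoq as the most abundant, Cfd and Nampt as genes that fell in the test below, and Agt, whose groups did not overlap. They come from RefSeq on GRCm38.p6, whereas the submitters' processing notes name the build GRCm39. Of the 8 members 6 had an entry, and Angptl4 and Rarres2 are named only. Both strands were searched for the CCAAT box (letters CCAAT), the TATA box (letters TATAAA), the core of the hypoxia response element (letters ACGTG), the GC box (letters GGGCGG), a palindromic C/EBP site (letters TTGCGCAA) and a PPAR response element, which is AGGTCA repeated after 1 base. Capitals mark the exact matches.
Adipoq, chr16:23146286-23146535, plus strand: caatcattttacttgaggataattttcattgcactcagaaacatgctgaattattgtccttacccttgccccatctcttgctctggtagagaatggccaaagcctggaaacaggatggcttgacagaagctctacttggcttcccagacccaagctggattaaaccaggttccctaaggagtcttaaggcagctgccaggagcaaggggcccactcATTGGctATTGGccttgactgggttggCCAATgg
Cfd, chr10:79890603-79890852, plus strand: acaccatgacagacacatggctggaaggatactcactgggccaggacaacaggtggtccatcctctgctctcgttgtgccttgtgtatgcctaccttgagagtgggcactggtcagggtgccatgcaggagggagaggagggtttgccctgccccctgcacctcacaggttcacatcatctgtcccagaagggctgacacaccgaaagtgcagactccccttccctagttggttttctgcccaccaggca
Nampt, chr12:32820085-32820334, plus strand: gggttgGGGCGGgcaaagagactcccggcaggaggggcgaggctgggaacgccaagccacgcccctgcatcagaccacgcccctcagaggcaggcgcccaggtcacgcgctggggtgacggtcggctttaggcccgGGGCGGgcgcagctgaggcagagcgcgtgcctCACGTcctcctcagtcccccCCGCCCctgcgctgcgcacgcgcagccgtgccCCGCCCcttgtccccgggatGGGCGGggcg
Agt, chr8:124569707-124569956, minus strand: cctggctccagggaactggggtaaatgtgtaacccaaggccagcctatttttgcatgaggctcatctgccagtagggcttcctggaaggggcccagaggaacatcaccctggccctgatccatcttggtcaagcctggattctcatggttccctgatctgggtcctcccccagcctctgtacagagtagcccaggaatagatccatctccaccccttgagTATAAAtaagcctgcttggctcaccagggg

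Adipoq held 3 CCAAT boxes, whose first bases lay 34, 27 and 7 bases before the start. A CCAAT was present in 33.8% of all 32851 windows of this length, and was not found in the windows of Cfd, Nampt, Agt, Retn and Apln. Nampt held 5 GC boxes (present in 32.7% of windows) and 1 hypoxia response core (16.6%), and 75.6% of its bases were G or C, against a median of 52.4%. Agt held 1 TATA box 30 bases before the start (12.4% of windows), Apln held 1 GC box, and Cfd and Retn had no match. The PPAR element and the C/EBP site, present in 0.0335% and 0.164% of windows, were not found in these 6 windows. A match describes the letters of a window and shows no bound site.

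Recovered library totals ran from 34207232 to 35299269 reads in siNC and from 31957411 to 35410308 in siYBX1. Ybx1, the targeted gene, was at 135, 134 and 129.6 FPKM in siNC and 59.3, 67.9 and 61.3 FPKM in siYBX1, 47.3% of the control mean. All 6 adipocyte markers (Fabp4, Plin1, Cd36, Lpl, Cidec and Pparg) were expressed, with sums of 1595 to 2213 FPKM in siNC and 2021 to 2463 FPKM in siYBX1. None of them was called by limma as described below (3 had an unadjusted p below 0.05). On all libraries 2 were called after rescaling to TPM or quantile normalization, and 1 after a length correction or with voom. Without siNC replicate 1 the count was 2, and it was 1 without siNC replicate 2 or siYBX1 replicate 1. In the main fit on all libraries 4 markers had a positive log2 fold change and 2 a negative one. Cidec was among those called after TPM (-0.31), after quantile normalization (-0.35) and without siNC replicate 1 (-0.38), lower in siYBX1 each time. Fabp4, which made up most of the sums, was at 1481 ± 299 and 1755 ± 200.1 FPKM in siNC and siYBX1. Cidec was at 220.0 ± 31.4 and 183 ± 13.9 FPKM in siNC and siYBX1 (SD, n = 3 for both genes). Of 8 macrophage markers 5 stayed under 0.1 FPKM in every library, among them Adgre1 and Ptprc, and the list summed to 15.9 to 29.5 FPKM in siNC and 11.4 to 17.2 FPKM in siYBX1, nearly all of it Cd68 and Cd14. Of 6 endothelial markers 5 stayed under 0.1 FPKM, among them Pecam1 and Kdr, and the list, nearly all of it Egfl7, summed to 16.8 to 21.8 FPKM in siNC and 16.1 to 18.2 FPKM in siYBX1. The preadipocyte and fibroblast list summed to 553 to 589 FPKM in siNC and 517 to 537 FPKM in siYBX1, led by Ly6a and Pdgfrb and with Dpp4 near 0. The smooth muscle list, mostly the actin Acta2, summed to 582 to 651 FPKM in siNC and 2015 to 2114 FPKM in siYBX1, and 4 of its 5 tested genes rose. Of these Tagln rose from 7.90 ± 1.24 to 50.3 ± 4.24 FPKM and Actg2 from 6.14 ± 0.823 to 26.7 ± 0.143 FPKM (SD, n = 3). The part of these cell programmes in the results below was not tested. In bulk RNA, fewer cells of a type and less RNA per cell cannot be told apart.

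One control library, siNC replicate 1, stood apart. Its chi-square per gene against siNC replicates 2 and 3 was 23.2 and 19.9, whereas those differed from each other by 4.64 and the siYBX1 libraries among themselves by 8.36 to 11.0. It was the lowest control for 5 of the 7 tested adipokine genes and the highest for 1, against 38.6% and 42.2% of all genes tested. It was the lowest control for 13 of 16 tested genes of adipocyte maturity. It was the highest for 17 of 17 tested genes on a list of hypoxia-inducible genes, known targets of the hypoxia-inducible factors. The list was chosen with earlier results of these data known and does not hold every such target. Angptl4, another known target, is not on it and was lowest in siNC replicate 1, at 78.6 FPKM against 85.3 and 88.9 FPKM. The hypoxia list summed to 6463 FPKM in siNC replicate 1, to 5370.2 and 5535 FPKM in the other controls and to 4646 to 5501 FPKM in siYBX1. Members that moved with this library are given with and without it.

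**Figure D1:**
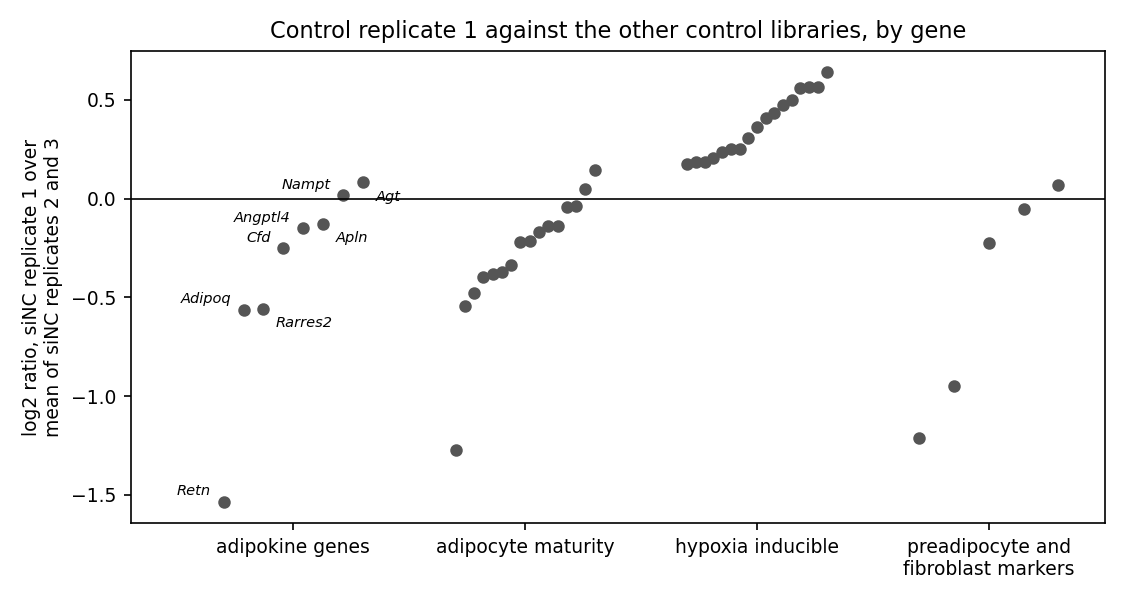
The vertical axis gives the log2 ratio of the level in siNC replicate 1 to the mean of siNC replicates 2 and 3, and each point is a gene, sorted within its list. Retn, Adipoq and Rarres2 lie lowest among the adipokine genes, at 65.5%, 32.3% and 32.0% below the other controls. All 17 tested genes of the hypoxia list lie above 0. Angptl4, a target of hypoxia-inducible factors that is not on that list, lies 9.83% below the other controls.

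Of the 7 tested members, Angptl4 rose and Cfd and Nampt fell, which makes 3, and 4 did not pass (limma on log2(FPKM + 1), Benjamini-Hochberg adjusted p below 0.05 over all 10341 genes tested). The share of all genes called was 20.6%, with 9.54% higher and 11.1% lower. Rescaling to TPM changed that split from 987 higher and 1145 lower to 646 higher and 1566 lower. The members' median log2 fold change was -0.14, against -0.01 over all genes tested. The groups did not overlap for Angptl4, Cfd, Nampt and Agt, 4 of the 7, against 40.9% of all genes tested. With so few members these counts do not set them apart from the whole table. The same shares are the background for the list counts and for the groups without overlap given below. No list was tested against them.

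**Figure D2:**
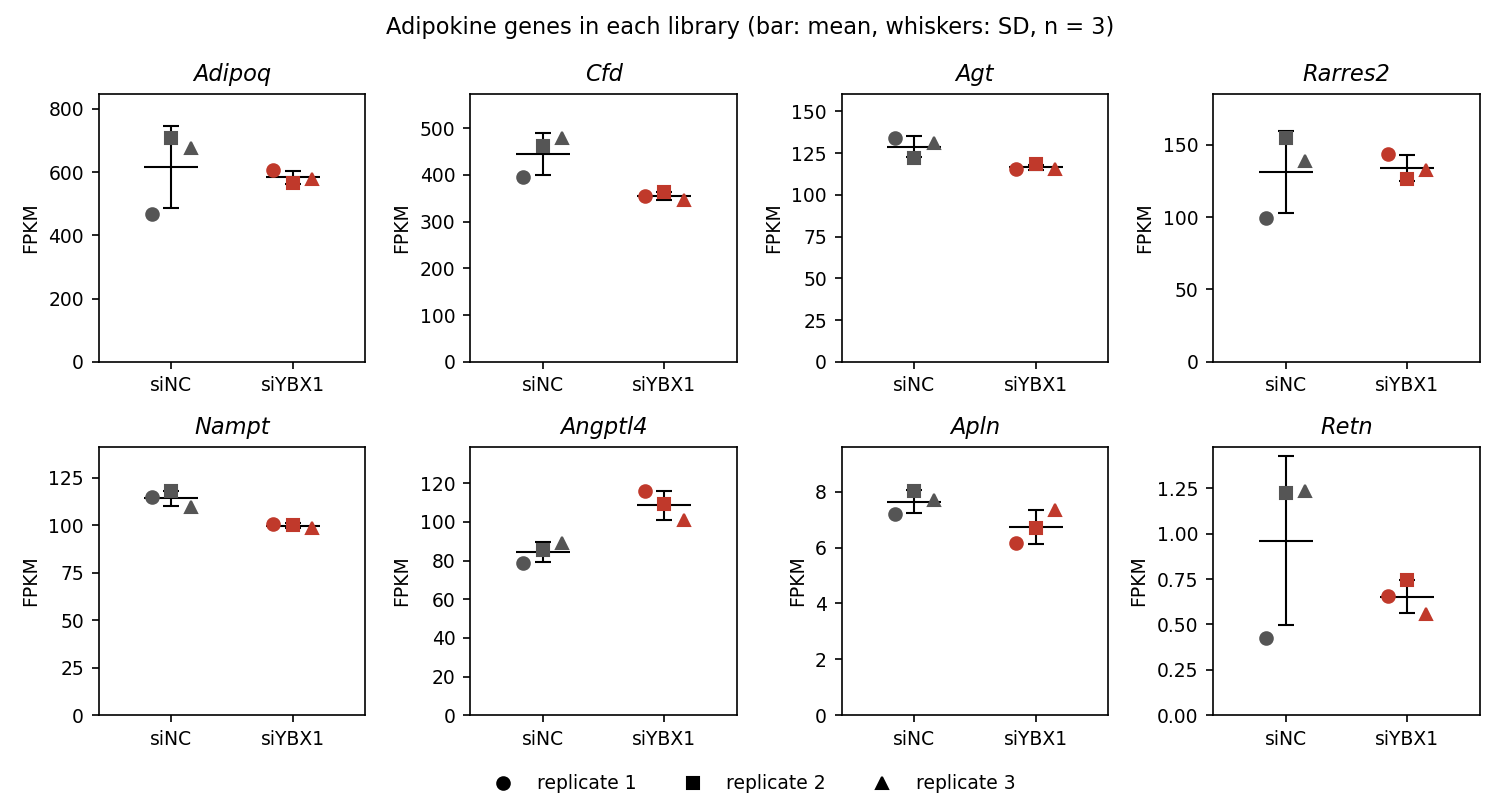
Each panel plots the FPKM of 1 adipokine gene (vertical axis from 0) in the siNC libraries (grey) and the siYBX1 libraries (red), with marker shapes for replicates 1 to 3, the group mean as a bar and the SD as whiskers. The groups are apart for Cfd, Agt, Nampt and Angptl4, and siNC replicate 1 is the lowest point for Adipoq, Rarres2, Retn and Angptl4.

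Adiponectin was the most abundant of the 8 transcripts and did not pass the test. Adipoq was at 468, 707 and 676 FPKM in siNC and 607, 566 and 577 FPKM in siYBX1 (replicates 1 to 3 in that order, here and below). The knockdown libraries lay between the low control and the high ones, so the groups overlapped. Its rank among all 16423 symbols ran from 68 to 124. Means were 617 ± 129.9 and 583.5 ± 21.2 FPKM (SD, n = 3), and the log2 fold change was -0.06 (SE 0.13, 95% confidence interval -0.34 to 0.23). The adjusted p was 0.783 (limma). Leaving out siNC replicate 1 gave a control mean of 692 FPKM and a log2 fold change of -0.25, which passed (limma, adjusted p = 0.0131). The direction turned to 0.05 without siNC replicate 2 and to 0.02 without siNC replicate 3, and neither passed. The coefficient of variation was 21.0% in siNC and 3.64% in siYBX1.

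Of 6 tested genes linked to the folding or secretion of adiponectin, directly or as regulators, 1 fell and none rose (median log2 fold change 0.03). Ero1a, an oxidase of the endoplasmic reticulum that recharges protein disulfide isomerase, fell from 264, 208 and 201 FPKM in siNC to 146.5, 166 and 179 FPKM in siYBX1 (log2 fold change -0.44, adjusted p = 0.0131, limma). It is also a hypoxia-inducible gene and was highest in siNC replicate 1, without which it was at -0.32 and passed. Removing siYBX1 replicate 1 ended the call (limma, adjusted p = 0.0531). Erp44, the chaperone that retains adiponectin in the secretory pathway, was not called, with 10.2 to 11.0 FPKM in siNC and 11.2 to 11.5 FPKM in siYBX1.

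Among the C1q and TNF related genes, whose proteins share the globular domain of adiponectin, 2 of 3 tested genes rose. C1qtnf6 rose from 14.8 ± 0.662 to 22.5 ± 1.39 FPKM (SD, n = 3; limma adjusted p = 0.000282). C1qtnf1 rose from 9.75 ± 0.543 to 12.3 ± 0.994 FPKM (SD, n = 3; limma adjusted p = 0.0115).

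Resistin was nearly silent. Retn was at 0.424, 1.23 and 1.23 FPKM in siNC and 0.656, 0.746 and 0.559 FPKM in siYBX1, which came from 19 to 56 reads per library. The lowest control lay under all knockdown libraries and the other controls above them. In the fit without a filter the log2 fold change was -0.22 (limma, adjusted p = 0.528), and without siNC replicate 1 it was -0.43 (adjusted p = 0.0278). Leaving out any other library gave -0.26 to -0.11, and none of these passed (limma adjusted p from 0.564 to 0.794). Retn did not pass after rescaling to TPM (-0.33, limma adjusted p = 0.298) or with voom (-0.40, limma adjusted p = 0.502). Its relative Retnla was more abundant, at 8.88, 9.40 and 9.32 FPKM in siNC and 7.98, 10.2 and 6.37 FPKM in siYBX1 (log2 fold change -0.17, limma adjusted p = 0.333). Retnla passed only without siYBX1 replicate 2, at -0.33 (limma, adjusted p = 0.0425).

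Adipsin fell. Cfd was at 395, 461 and 478 FPKM in siNC and 355, 362.5 and 346 FPKM in siYBX1, and all knockdown libraries lay below all controls. Means were 445 ± 44.2 and 355 ± 8.13 FPKM (SD, n = 3), so 79.8% of the control level was left. The log2 fold change was -0.32 (SE 0.07, 95% interval -0.49 to -0.16, limma adjusted p = 0.0136). Without siNC replicate 1, the control nearest to the knockdown libraries, it was -0.40 (limma, adjusted p = 0.000517). The call was lost on leaving out siNC replicate 3 (-0.27, adjusted p = 0.0570) or siYBX1 replicate 3 (-0.30, adjusted p = 0.0506).

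In the alternative complement pathway, Cfd included, 2 of 6 tested genes fell and none rose (median log2 fold change -0.12), a count of 1 without siNC replicate 3 or siYBX1 replicate 3. C3, the component from which the convertase of this pathway is built, fell from 99.7, 83.4 and 87.9 FPKM in siNC to 52.0, 50.5 and 48.5 FPKM in siYBX1, 55.7% of the control mean (limma, adjusted p = 5.16e-05). Cfb, the factor that adipsin cleaves, was under the filter, with 0.758 to 0.878 FPKM in siNC and 0.674 to 0.748 FPKM in siYBX1.

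Angiotensinogen was slightly lower without passing. Agt was at 134, 122 and 131 FPKM in siNC and 115, 118 and 116 FPKM in siYBX1, and the highest knockdown library lay just below the lowest control. The log2 fold change was -0.14 (SE 0.05, 95% interval -0.26 to -0.03, limma adjusted p = 0.0793). It passed after rescaling to TPM (-0.20, adjusted p = 0.0314), quantile normalization (-0.24, adjusted p = 0.0238) or a correction for gene length (-0.17, adjusted p = 0.0455).

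Of 6 tested genes that process angiotensins or their precursors none passed (limma, median log2 fold change 0.02), and 0 had an unadjusted p below 0.05. Ctsd, the protease cathepsin D, was at 564 ± 18.3 in siNC and 581 ± 11.1 FPKM in siYBX1, and Mme, the peptidase neprilysin, at 111 ± 20 in siNC and 108 ± 7.73 FPKM in siYBX1 (SD, n = 3). Anpep, an aminopeptidase just under the filter (chosen after its values were seen), was at 1.08, 1.37 and 1.41 FPKM in siNC and 0.471, 0.653 and 0.779 FPKM in siYBX1. Its adjusted p without a filter was 0.0326 (limma). It was also the 1 gene of the list called after rescaling to TPM, with voom on recovered reads, and without siYBX1 replicate 1 or siYBX1 replicate 2. Ren1, which encodes renin, and Ace, which encodes the converting enzyme, reached at most 0.123 and 0.0286 FPKM.

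Nampt fell by a small step. It was at 115, 118 and 109.6 FPKM in siNC and 101, 100.2 and 98.4 FPKM in siYBX1, and all knockdown libraries lay below all controls. Means were 114 ± 4.14 and 99.7 ± 1.2 FPKM (SD, n = 3), and the log2 fold change was -0.19 (SE 0.05, 95% interval -0.30 to -0.08, limma adjusted p = 0.0231). It was as large without siNC replicate 1, at -0.19. Removing siNC replicate 2 gave an adjusted p of 0.0786 (limma), and removing siYBX1 replicate 1, 2 or 3 gave 0.0656, 0.0675 and 0.0695, so the call was lost in these 4 fits. In GENCODE vM21 Nampt overlaps the lincRNA Gdap10 on the same strand, which was not analysed here, and reads from that overlap cannot be told apart.

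Of 16 tested genes of NAD salvage and use 1 fell and none rose (median log2 fold change -0.08). Sirt2, an NAD-dependent deacetylase, fell from 35.2 ± 0.510 to 31.1 ± 0.825 FPKM (SD, n = 3; limma adjusted p = 0.0295). The count was 3 without siNC replicate 1 and 0 in each of the other 5 fits that left out a library, where the adjusted p of Sirt2 was 0.0552 to 0.0966 (limma). Nmnat1, which completes NAD synthesis in the nucleus, was at 3.53 to 4.14 FPKM in siNC and 3.72 to 3.90 FPKM in siYBX1.

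Apelin was expressed at a low level. Apln was at 7.19, 8.01 and 7.70 FPKM in siNC and 6.17, 6.69 and 7.36 FPKM in siYBX1, and siYBX1 replicate 3 lay above siNC replicate 1. The log2 fold change was -0.16 (SE 0.07, limma adjusted p = 0.133). It passed in none of 15 alternative fits, 9 with a change of processing and 6 with a library left out, in which it ran from -0.22 to -0.11.

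Chemerin varied in the controls as adiponectin did. Rarres2 was at 99.6, 154 and 139 FPKM in siNC and 144, 126 and 132 FPKM in siYBX1. The knockdown libraries lay within the range of the controls, and siNC replicate 1 was lowest of all. The log2 fold change was 0.06 (95% interval -0.23 to 0.34, limma adjusted p = 0.790), and -0.13 without siNC replicate 1 (limma adjusted p = 0.200). In the same annotation the gene overlaps Lrrc61 on the opposite strand. Stranded counting is not given in the sources used here, so reads from the overlap cannot be told apart.

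Angptl4 was the member that rose. It was at 78.6, 85.3 and 88.9 FPKM in siNC and 116, 109 and 101 FPKM in siYBX1, and the lowest knockdown library lay above the highest control. Means were 84.3 ± 5.26 and 109 ± 7.38 FPKM (SD, n = 3), a 1.29-fold difference. The log2 fold change was 0.36 (SE 0.07, 95% interval 0.22 to 0.51, limma adjusted p = 0.00441). It passed in all 15 alternative fits, at 0.29 to 0.41 (limma adjusted p from 0.00124 to 0.0334). Without siNC replicate 1, its lowest control, the log2 fold change was 0.31. With no filter and a library also left out, Angptl4 passed only without siYBX1 replicate 3 (limma adjusted p = 0.0464). The other such fits gave adjusted p from 0.0576 to 0.101 (limma). For Angptl4, Cfd, Nampt and Agt alike, p was 0.1 by exact permutation of the libraries (two-sided), the smallest value that 3 against 3 allow.

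**Figure D3:**
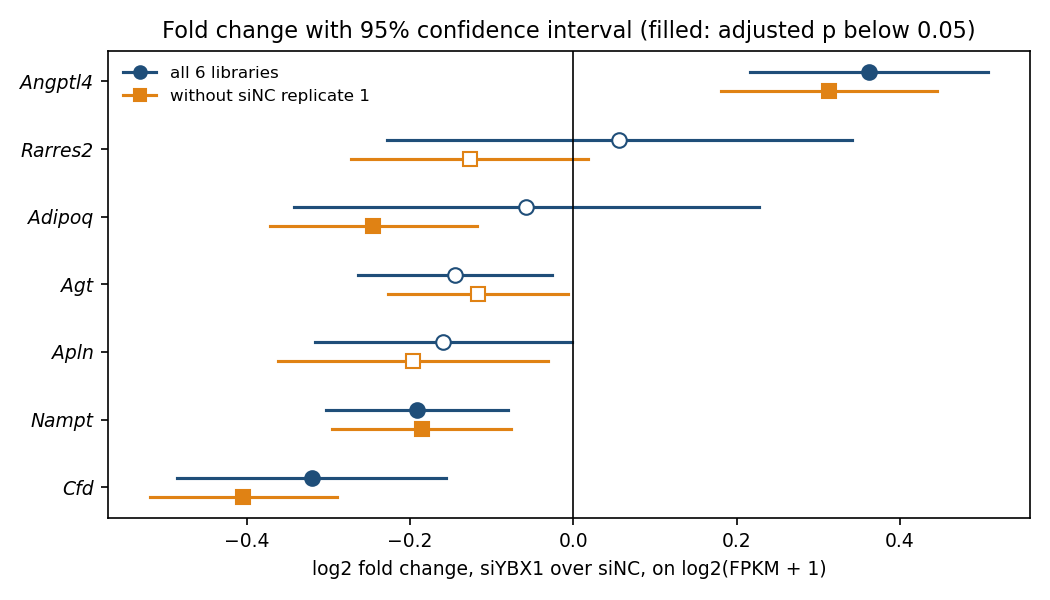
The horizontal axis gives the log2 fold change of siYBX1 over siNC for the 7 tested adipokine genes, with its 95% confidence interval, from all 6 libraries (blue circles) and without siNC replicate 1 (orange squares). Filled markers passed the threshold, and leaving out that control moved Adipoq from -0.06 to -0.25 and Rarres2 from 0.06 to -0.13, while Nampt stayed at -0.19.

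Among other angiopoietin-like genes and the partners of lipoprotein lipase, 1 of 10 tested genes rose and 1 fell (median log2 fold change -0.07). Lpl itself was at 28.0, 34.4 and 36.4 FPKM in siNC and 38.4, 32.1 and 34.7 FPKM in siYBX1, with siNC replicate 1 again lowest (log2 fold change 0.09, limma adjusted p = 0.512). Furin, a protease that cleaves many precursor proteins, rose from 17.8 ± 1.42 to 22.9 ± 1.01 FPKM (SD, n = 3; limma adjusted p = 0.00513). Vldlr, a lipoprotein receptor, fell from 5.37 ± 0.460 to 4.01 ± 0.356 FPKM (SD, n = 3; limma adjusted p = 0.0111).

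Of 11 tested genes of retinol handling 1 rose and 1 fell (median log2 fold change -0.06). Rdh11, a retinal reductase, fell from 22.5, 22.5 and 22.6 FPKM in siNC to 16.3, 19.3 and 15.7 FPKM in siYBX1 (limma, adjusted p = 0.00515). Dhrs9, a short-chain dehydrogenase, rose from 5.44 ± 0.410 to 6.62 ± 0.577 FPKM (SD, n = 3; limma adjusted p = 0.0449). The Dhrs9 call did not hold without siNC replicate 2, siNC replicate 3, siYBX1 replicate 2 or siYBX1 replicate 3 (limma adjusted p from 0.117 to 0.137), and 3 genes of the list were called without siNC replicate 1.

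Most receptors of the adipokines were expressed at a low level. Of 18 with values 6 were tested, of which 1 rose and 2 fell (median log2 fold change -0.10). Adipor2 was the more abundant adiponectin receptor, at 126, 141 and 149.6 FPKM in siNC and 153, 147 and 135 FPKM in siYBX1 (log2 fold change 0.06, limma adjusted p = 0.575). Adipor1 was at 51.4, 46.6 and 45.6 FPKM in siNC and 45.3, 45.5 and 45.2 FPKM in siYBX1 (log2 fold change -0.07, limma adjusted p = 0.362). The list also counts Insr, the insulin receptor, although insulin is not among the members described here. Insr was at 12.6 to 13.8 FPKM in siNC and 11.5 to 12.4 FPKM in siYBX1 (limma, adjusted p = 0.165).

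Cdh13, a cadherin that binds the large forms of adiponectin, fell from 7.51, 7.15 and 6.71 FPKM in siNC to 5.14, 5.34 and 5.69 FPKM in siYBX1 (log2 fold change -0.35, limma adjusted p = 0.00513). Cmklr1, the signalling receptor of chemerin, fell from 5.48, 5.27 and 5.78 FPKM in siNC to 3.87, 3.69 and 3.53 FPKM in siYBX1, 67.0% of the control mean (log2 fold change -0.47, limma adjusted p = 0.000989). Cap1, an actin regulator described as a binding partner of resistin, rose from 138, 127 and 131 FPKM in siNC to 169, 179.6 and 175 FPKM in siYBX1 (log2 fold change 0.40, limma adjusted p = 0.00105). The groups did not overlap for any of these 3 genes, and each passed in all 6 fits that left out a library.

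The other 12 receptor genes were under the filter. Agtr2, a receptor of angiotensin, was the highest of them, with 0.380 to 0.804 FPKM in siNC and 0.697 to 1.19 FPKM in siYBX1, while Agtr1a and Agtr1b reached at most 0.0128 and 0.126 FPKM. Stra6, the membrane receptor of retinol-binding protein, was at 0.0723, 0.114 and 0.188 FPKM in siNC and 0.0214, 0.0258 and 0.0206 FPKM in siYBX1, with no overlap (limma adjusted p without a filter = 0.0754). C3ar1, the receptor of the C3a fragment, was at 0.0134, 0.00680 and 0.00659 FPKM in siNC and 0.0291, 0.0394 and 0.0419 FPKM in siYBX1 (limma adjusted p without a filter = 0.0504). Values this low rest on few reads, so the differences of Stra6 and C3ar1 are uncertain, and neither passed. The leptin receptor Lepr reached at most 0.0843 FPKM and the apelin receptor Aplnr 0.0242 FPKM. Ccrl2 and Gpr1, further receptors of chemerin, reached at most 0.0658 and 0.0141 FPKM. Mas1, C5ar2 and Stra6l reached at most 0.0124, 0.00545 and 0.00287 FPKM.

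Genes on a list of other secreted factors changed in both directions. Not all of them are established as secreted by fat cells, Sncg among these. Of 29 tested genes 3 rose and 9 fell (median log2 fold change -0.13), against 9.54% higher and 11.1% lower over all genes tested. Sncg, a synuclein gene expressed in adipocytes, rose from 76.9, 90.4 and 82.1 FPKM in siNC to 110.0, 107 and 102 FPKM in siYBX1, with no overlap of the groups (log2 fold change 0.35, limma adjusted p = 0.00478). Metrnl, a factor secreted by muscle and fat, rose from 2.85 ± 0.350 to 3.96 ± 0.684 FPKM (SD, n = 3; limma adjusted p = 0.0330). Metrnl did not pass when siNC replicate 1, siNC replicate 2, siYBX1 replicate 2 or siYBX1 replicate 3 was removed (limma adjusted p from 0.0737 to 0.119).

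Fbn1, the fibrillin whose precursor also yields asprosin, fell from 19.9, 19.7 and 18.8 FPKM in siNC to 10.4, 11.4 and 11.3 FPKM in siYBX1 (log2 fold change -0.77, limma adjusted p = 2.93e-05). Cxcl12, a chemokine, fell from 97.7, 95.1 and 93.3 FPKM in siNC to 57.1, 68.4 and 61.7 FPKM in siYBX1 (log2 fold change -0.61, limma adjusted p = 0.000298). The groups did not overlap for either gene. Of the inflammatory adipokines (chosen after their values were seen), Ccl2 was at 26.1 to 36.7 FPKM in siNC and 26.5 to 40.1 FPKM in siYBX1 and was not called, and Il6 and Tnf were under the filter, with at most 0.571 and 0.0189 FPKM.

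**Figure D4:**
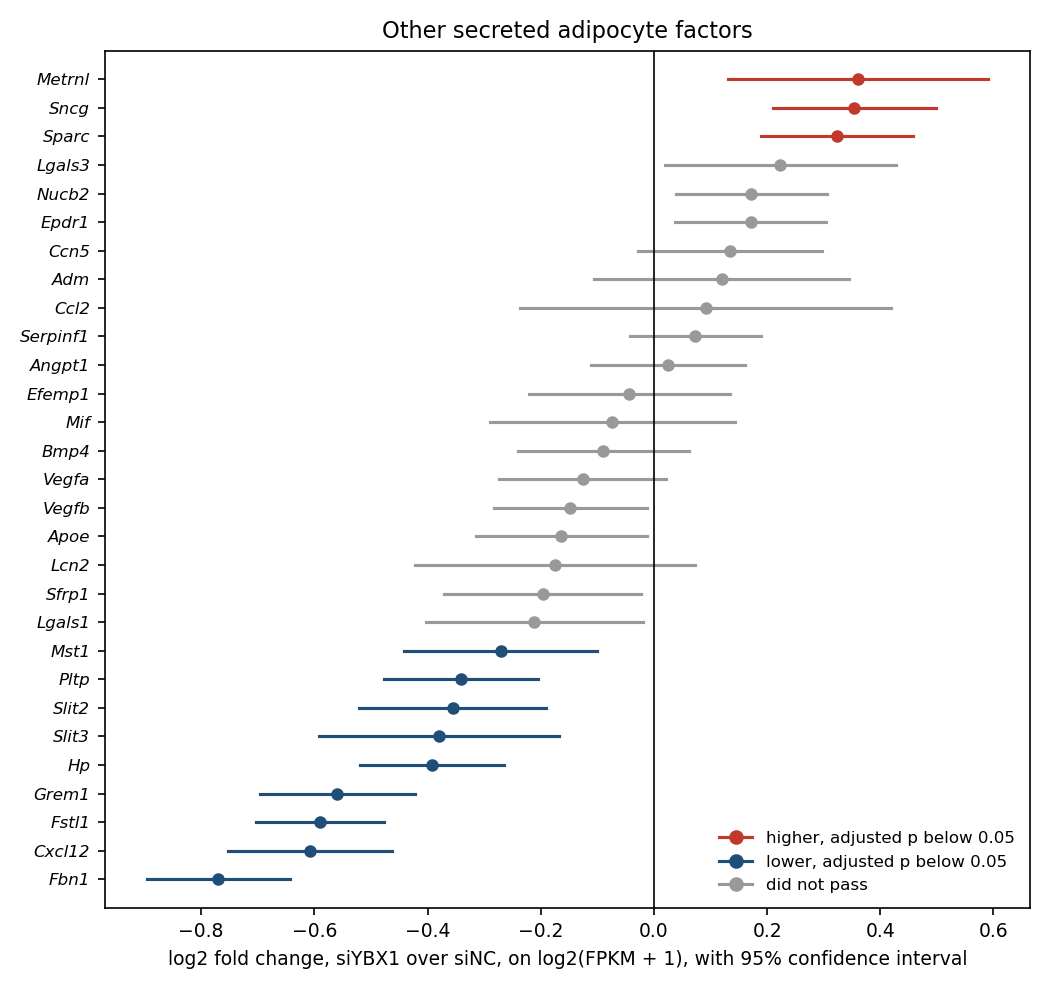
The horizontal axis gives the log2 fold change of siYBX1 over siNC with its 95% confidence interval for the 29 tested genes of the other secreted factors, sorted by value. Colours mark the 3 that rose, up to Metrnl at 0.36, and the 9 that fell, down to Fbn1 at -0.77.

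Of 22 tested regulators of adipokine genes 1 rose and 3 fell (median log2 fold change -0.09). Pparg was at 80.1, 94.3 and 87.9 FPKM in siNC and 95.2, 89.2 and 92.7 FPKM in siYBX1 (log2 fold change 0.08, limma adjusted p = 0.389). Hif1a, the oxygen-sensitive subunit of a hypoxia-inducible factor, rose from 44.5 ± 0.939 to 53.7 ± 0.607 FPKM (SD, n = 3; limma adjusted p = 0.00402). Srebf1, a regulator of lipid synthesis, fell from 19.6 ± 0.539 to 16.2 ± 0.428 FPKM (SD, n = 3; limma adjusted p = 0.00660). Ep300, a histone acetyltransferase, fell, with a log2 fold change of -0.28 (limma, adjusted p = 0.0487), and among the fits that left out a library it passed only without siNC replicate 2 or siYBX1 replicate 3. It was at -0.18 without siNC replicate 1. The other that fell was Stat5a, a signal transducer (chosen after its values were seen), at -0.19. The list's count was 2 without siNC replicate 3, siYBX1 replicate 1 or siYBX1 replicate 2.

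Of 16 tested genes of adipocyte maturity 3 fell and none rose (median log2 fold change -0.13), against 11.1% lower and 9.54% higher over all genes tested. Pnpla2, the triglyceride lipase, fell from 428, 371 and 405 FPKM in siNC to 308, 288 and 296 FPKM in siYBX1 (limma, adjusted p = 0.00189). Scd1, a fatty acid desaturase, fell from 2472 ± 140.3 to 1931 ± 132 FPKM (SD, n = 3; limma adjusted p = 0.0136), and did not pass without siNC replicate 3 (adjusted p = 0.0610) or siYBX1 replicate 2 (adjusted p = 0.0728). Fasn, the fatty acid synthase (chosen after its values were seen), also fell, at -0.25. The list's count was 8 without siNC replicate 1, 6 without siYBX1 replicate 1, and fell to 1 on removal of siNC replicate 3 or siYBX1 replicate 2. Of 17 tested hypoxia-inducible genes 1 was called, Ero1a (median log2 fold change -0.16), a count of 2 without siNC replicate 1 or siNC replicate 3 and of 0 without siYBX1 replicate 1. Angptl4, also known as a target of hypoxia-inducible factors, had its lowest control value in siNC replicate 1, where those genes were highest.

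For each tested member the genes with the most similar profile over the 6 libraries were taken from 7342 genes whose mean reached 5 FPKM. Likeness was the root mean square difference of log2(FPKM + 1) after removal of each gene's mean, so it includes the difference between the groups. The directions and calls of the genes found therefore largely follow from the choice and are no separate support. For Adipoq these were Fxyd1 (0.0451), Mme (0.0541) and Gulp1 (0.0635), against a spread of 0.193 for Adipoq itself, and each had its lowest value in siNC replicate 1. For Rarres2 they were Adh1 (0.0446), Gstz1 (0.0450) and Gsta4 (0.0536). None of these 6 genes was called. For Cfd they were Ropn1l (0.0310), Echs1 (0.0407) and Npc2 (0.0431), all of which fell, and for Angptl4 Psmc4 (0.0277), Psma7 (0.0319) and Plekhj1 (0.0322), all of which rose. For Nampt they were Ezh2 (0.0109), Wdr45 (0.0208) and Fnip1 (0.0213), for Agt Smpd1 (0.0164), Tbc1d2b (0.0181) and Itprid2 (0.0195), and for Apln Il1r1 (0.0261), Dpy19l1 (0.0298) and Polk (0.0307).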

How the data were processed

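Per the labels' protocols, libraries were made from 1.3 µg of total RNA. The authors deposited 1 table of FPKM values per gene symbol for the 3 siNC and 3 siYBX1 libraries. Tools listed in the submitters' processing notes are HISAT2, HTSeq and fastp, without versions, and the build is GRCm39. Columns were matched to samples by group and number.

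The FPKM values move in steps of 1 read. Library totals were estimated from 189 to 212 values per library that matched the gene lengths listed by RefSeq, and the smallest length that made a gene's values whole, within 0.02 reads, was found for 16422 of 16423 genes. Recovered reads can be too few where a gene's reads share a divisor. Members that were tested had 621 to 29799 recovered reads per library.

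Differences were tested with limma 3.58.1 in R 4.3.3, with an intensity trend and no covariate, on log2(FPKM + 1). The test was two-sided, and genes needed a mean FPKM of at least 1. Fold changes on this scale understate those of low genes. Confidence intervals are not adjusted for the number of genes. On simulated data for this comparison (10340 genes, 50 changed per size) 72% of 1.25-fold and 98% of 1.5-fold changes were recovered. Of 198 calls 13 were false. All simulated libraries had the same spread, none stood apart as siNC replicate 1 did, and far fewer genes changed than were called here. These rates may therefore not hold for the data, least of all for genes that varied among the controls. All members are named. Of each other list the 2 largest called rises and falls are named, or the 2 most abundant genes where none passed. All receptors and 3 genes of like profile per member are named, and further genes are examples chosen after their values were seen. Members and lists were chosen with earlier results of these data known, and 1 gene of the other secreted factors is not reported here. The alternatives were a pseudocount of 0.1, no filter, a filter of 5 FPKM, TPM, quantile normalization, no intensity trend, voom on recovered reads (mean of at least 10), a loess correction for recovered length (span 0.3), a replicate block and leaving out each library. Tables were handled with pandas 2.3.3 and numpy 2.4.6, permutation tests used scipy 1.17.1, and plots matplotlib 3.10.9.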

Additional observations from a re-analysis of the deposited data

How the results depend on the processing

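With all libraries 2132 genes were called, against 1241 without a filter on low values, 1346 with the replicate block and 1201 to 2026 when a library was left out. Of the members 3 were called, and 1 to 4 when a library was left out: 1 without siYBX1 replicate 3 and 4 without siNC replicate 1. Angptl4 was called in 15 of 15 alternatives, Cfd in 12, Nampt in 10, Agt in 3 and Adipoq in 1, and Apln and Rarres2 in none. Fits that used no filter and also left out a library, given above for Retn and Angptl4, are not in these counts. Among them Angptl4 passed only without siYBX1 replicate 3 and Cfd only without siNC replicate 1 (limma adjusted p = 0.0181). Nampt passed in none of them (limma adjusted p from 0.0643 to 0.105). No called value changed sign. Cfd did not pass without a filter (limma adjusted p = 0.0668). With the replicate block Nampt did not pass (limma adjusted p = 0.0803), and the block changed no other call of a member. Deviations of same-numbered libraries from their group means had correlations across genes of -0.31, -0.13 and -0.25. With so few libraries, and siNC replicate 1 apart, these values cannot settle whether the numbers pair the libraries. The labels do not say. Where a call was lost, the cause was not tested. Of the members depth limits Retn most, at 19 to 56 reads per library.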
